A study of Mus musculus with 30 samples.

Results

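The comparison uses 6 of the 30 libraries of a mouse osteoclast RNA-seq series, 3 whose titles carry the mark 519 and 3 that carry no mark, all from Terc-/- C57BL/6J mice aged 6 months. The labels do not state what 519 stands for, so the 2 groups are called 519-marked and unmarked and nothing is assumed about a treatment, clone or batch. All 6 cultures were bone marrow-derived macrophages grown on bone slices in medium holding M-CSF at 25 ng/ml and RANKL at 100 ng/ml until large multinucleated cells were present, and both groups carry the same deletion of Terc, the RNA template of telomerase. The 519-marked libraries are replicates 1, 2 and 3 and the unmarked ones replicates 1, 2 and 4, and values are listed in that order. A further 2 pairs of groups were used for comparison. One was 519-marked against unmarked Terc-/- at 1 month, and the other was wild type at 1 month with the title mark gaiwei, equally unexplained, against unmarked wild type at 1 month. Whether the 3 libraries of a group are separate animals, pools or cultures is not stated. The p-values reflect the spread within groups, pooled over all 30 libraries of the series, and that spread may be technical.

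Osteoclasts form when macrophage precursors receive M-CSF through Csf1r and RANKL through Tnfrsf11a (RANK). RANK signalling induces the transcription factor Nfatc1, which drives the genes for cell fusion, for the proton pump that acidifies the resorption pit and for the enzymes that digest bone. Toll-like receptor ligands and interleukin-1 activate NF-kB in the same cells and can either halt early precursors or sustain committed ones, while type I interferons restrain osteoclast formation.

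Values were taken as TPM (transcript abundance per length, scaled to 1 fixed total in every library), and changes are given as 519-marked minus unmarked on the scale of log2(TPM scaled between libraries + 1), which understates changes of low genes, ± the standard error from limma. The TPM listed below are as deposited. The scaling divides them by 0.837 to 0.878 in the 519-marked libraries and by 0.997 to 1.093 in the unmarked ones, so that equal TPM in both groups give a positive change. TPM state no read depth; a rough estimate from the smallest step of TPM times exon length was 35700000 to 52000000 reads in the 519-marked libraries and 36600000 to 38500000 reads in the unmarked ones. The 519-marked libraries had fewer genes at 1 TPM or more (11796 to 11861, against 12311 to 12481 without the mark) and a larger share of TPM in their 50 highest genes (35.6% to 37.8%, against 30.7% to 32.4% without the mark). Mitochondrially encoded genes held 3.62% to 4.51% of TPM with the mark and 5.01% to 6.67% without it. Unmarked replicate 4 stood apart from its group, with correlations of 0.9704 and 0.9796 to replicates 1 and 2, against 0.9857 between those 2 libraries. Terc was listed at 0 in all 6 libraries, and most wild-type libraries listed it at 0 too, so it does not check the genotype. Sequencing run, culture date and the 519 mark cannot be told apart here, since the labels give neither of the first 2.

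Of 12614 genes tested, 3559 (28.2%) passed an adjusted p of 0.05, 1816 (14.4%) higher and 1743 (13.8%) lower with the 519 mark. Among them 147 were higher and 112 lower by over 4-fold. The largest rises were in inflammatory genes, namely Csf3, Il1b, Il1a, Il12a, Stfa3, Lcn2, Cxcl3, Slpi, Ereg, Il6, Wfdc21 and Cxcl1, with log2 changes of 5.68 down to 4.37. The largest falls were in Dcstamp, Anxa8, Acp5, Ctsk, Oscar, Mt3, Cyp2s1, Atp6v0d2, H2-Aa, Ifit3, Tspan7 and Rtp4, with log2 changes of -4.54 to -3.64. The median change over all tested genes was -0.01. With TPM as deposited, unscaled, that median was -0.26 and the counts became 884 higher and 3418 lower, so the split between higher and lower genes depends on the scaling. The groups did not overlap in TPM for 7275 of the tested genes (57.7%). The genes named as the largest rises and falls were picked among these, so their lack of overlap below follows from that choice.

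**Figure D1:**
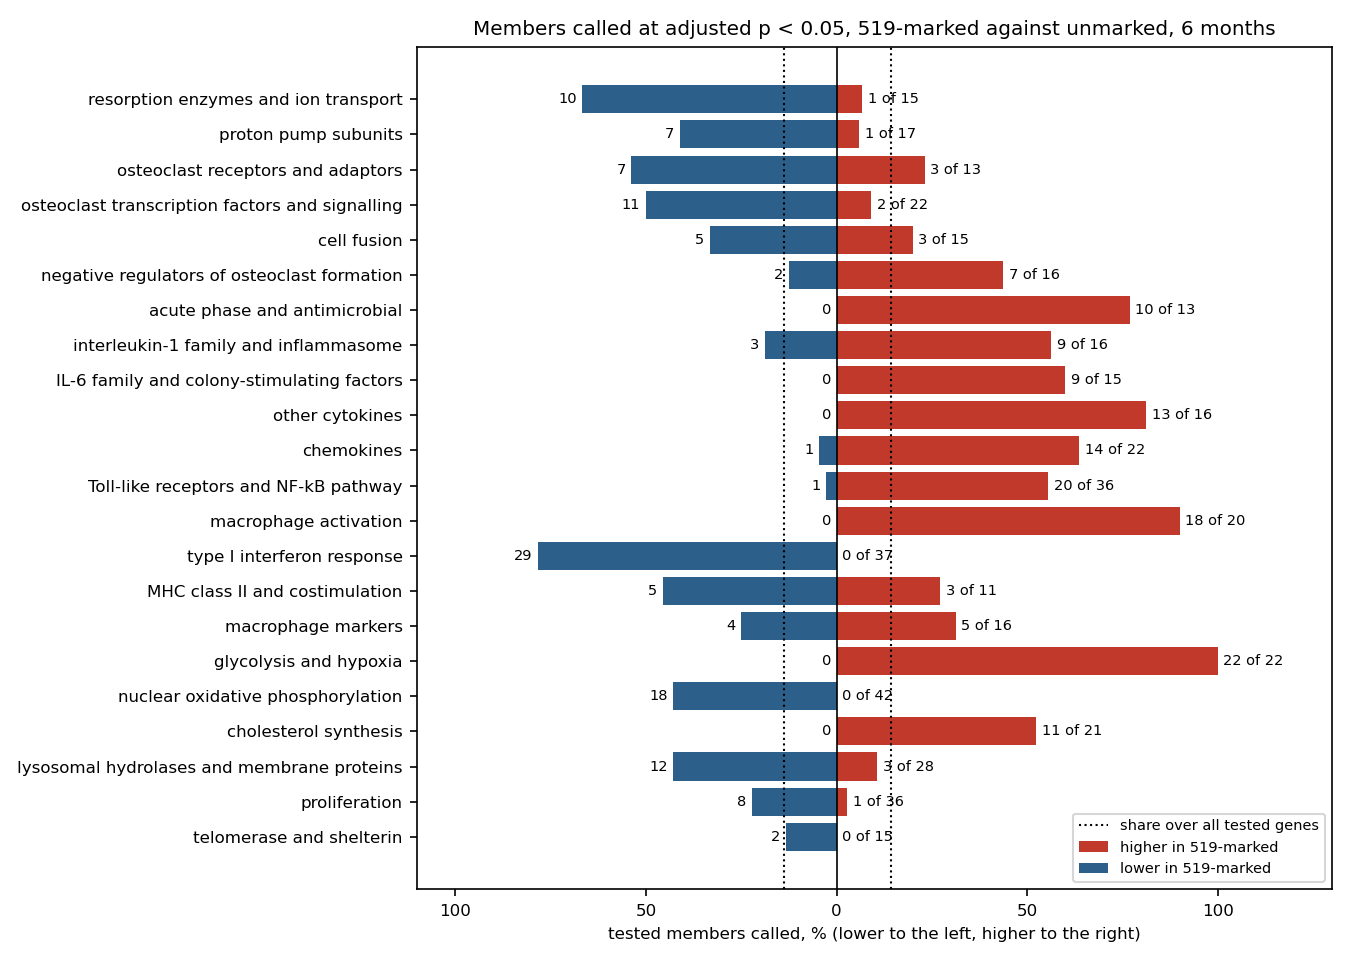
Share of the tested members of 22 gene lists called at an adjusted p of 0.05 in 519-marked against unmarked 6-month Terc-/- libraries (horizontal axis, percent of tested members), with members higher in 519-marked libraries to the right in red, members lower to the left in blue, and counts beside the bars. Dotted lines mark the shares over all tested genes, 14.4% higher and 13.8% lower. All 22 glycolysis and hypoxia genes lie to the right and 29 of 37 interferon-response genes to the left.

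Genes of bone resorption were lower in the 519-marked libraries. Of 15 resorption enzymes and ion transporters, 10 fell, 1 rose and 4 did not pass the test, with a median log2 change of -1.15, beside -0.01 over all tested genes. Acp5, the acid phosphatase whose activity marks osteoclasts in TRAP staining, read 145, 145 and 113 TPM in the 519-marked libraries, against 4831, 5403 and 1860.0 TPM in the unmarked ones (log2 change -4.48 ± 0.31, adjusted p = 1.4e-10). Ctsk, the collagen-degrading cathepsin K, read 154, 105 and 82.0 TPM in the 519-marked libraries, against 3392, 3576 and 1499 TPM in the unmarked ones (log2 change -4.28 ± 0.27, adjusted p = 5.53e-11). The groups were far apart for both genes, and unmarked replicate 4 was the lowest of its group for each. The carbonic anhydrase Car2, which supplies protons, read 1.67, 1.68 and 1.59 TPM in the 519-marked libraries, against 19.9, 11.6 and 5.91 TPM in the unmarked ones (log2 change -2.004 ± 0.29, adjusted p = 8.3e-06). Slc4a2, the bicarbonate exchanger that balances proton export, read 45.1, 42.6 and 44.3 TPM with the 519 mark and 136, 161 and 79.4 TPM without it (log2 change -1.15 ± 0.16, adjusted p = 5.86e-06). Anxa8, Slc9b2, Ckb, Slc37a2, Plekhm1 and Clcn7 also fell, with log2 changes of -4.53, -3.55, -2.82, -2.08, -1.03 and -0.60. Mmp9 and Mmp14, the 2 matrix metalloproteinases of the list, were not called lower. Mmp9 read 1412, 1868 and 1008 TPM with the 519 mark and 1913, 1653 and 986 TPM without it, which overlapped (log2 change 0.21 ± 0.30, adjusted p = 0.67). Mmp14 rose by 0.73, a call lost with TPM as deposited. In bulk RNA, fewer osteoclasts in a culture and less of these RNAs per osteoclast cannot be told apart.

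The proton pump changed unevenly over its subunits. Of 17 V-ATPase genes 7 fell and 1 rose, with a median of -0.37. With TPM as deposited 11 fell and none rose. Atp6v0d2, the subunit isoform enriched in osteoclasts that also takes part in fusion, read 11.1, 9.13 and 8.89 TPM in the 519-marked libraries, against 282, 286 and 117 TPM in the unmarked ones (log2 change -4.05 ± 0.25, adjusted p = 4.93e-11). Tcirg1, the a3 subunit that directs the pump to the ruffled border, read 310.3, 315 and 358 TPM with the 519 mark and 1009.9, 999.5 and 663 TPM without it (log2 change -1.13 ± 0.24, adjusted p = 0.000824). The groups were separate for these 2 subunits, and every marked library was lower. Atp6v0d1, the ubiquitous counterpart of Atp6v0d2, read 204, 182 and 195 TPM with the 519 mark and 220.0, 213 and 209 TPM without it, a gap that the scaling removes, and did not pass (log2 change 0.14 ± 0.16, adjusted p = 0.56). Atp6v1b2, Atp6v1g1, Atp6v1d, Atp6v1c1 and Atp6v1h fell by 1.53, 1.12, 0.88, 0.58 and 0.35 on the log2 scale. Atp6v0a1, the a1 isoform, rose by 0.54, a call lost with TPM as deposited.

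Receptors split by role. Csf1r, the M-CSF receptor, read 599.9, 605 and 563 TPM in the 519-marked libraries, against 764, 835 and 603 TPM in the unmarked ones, which overlapped (log2 change -0.02 ± 0.16, adjusted p = 0.95). Tnfrsf11a, the RANKL receptor, read 12.9, 10.9 and 12.02 TPM in the 519-marked libraries, against 52.2, 45.0 and 24.6 TPM in the unmarked ones (log2 change -1.35 ± 0.21, adjusted p = 2.62e-05), and its groups did not overlap. The costimulatory receptor Oscar, which binds collagen, read 0.420, 0.427 and 0.748 TPM with the 519 mark and 43.7, 47.6 and 13.2 TPM without it (log2 change -4.22 ± 0.28, adjusted p = 1.16e-10). Itgb3, the integrin beta 3 chain of the vitronectin receptor that seals the cell to bone, read 16.1, 16.5 and 13.7 TPM in the 519-marked libraries, against 149, 162 and 61.6 TPM in the unmarked ones (log2 change -2.54 ± 0.23, adjusted p = 8.66e-09). Siglec15, Calcr (the calcitonin receptor), Itgav and Trem2 also fell, with log2 changes of -3.16, -1.61, -1.04 and -0.62, so that 7 of 13 receptors and adaptors fell. The 3 that rose were the TNF receptors Tnfrsf1b (1.47) and Tnfrsf1a (0.43, lost with TPM as deposited) and the Fc receptor adaptor Fcer1g (0.72). Its companion adaptor Tyrobp (DAP12) changed by 0.25 and did not pass.

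**Figure D2:**
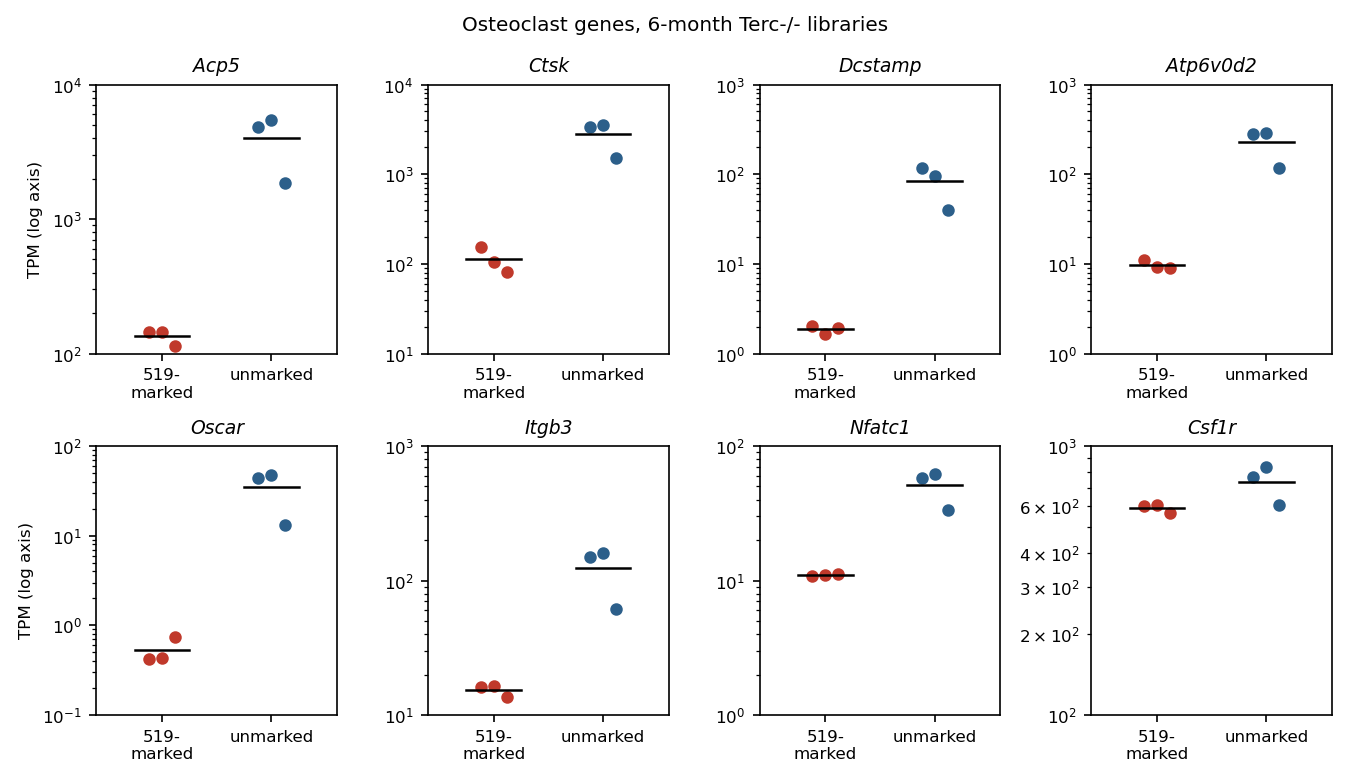
TPM (log axes, scaled per gene) of 8 osteoclast genes in the 3 519-marked (red, left) and 3 unmarked (blue, right) 6-month Terc-/- libraries, each point a library and each black line the group mean. For 7 genes the groups do not overlap, as for 57.7% of all tested genes, and Csf1r overlaps at 563 to 605 TPM with the mark and 603 to 835 TPM without it. Acp5, Ctsk, Dcstamp, Atp6v0d2 and Oscar were picked among the genes without overlap.

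Of 22 osteoclast transcription factors and signalling genes, 11 fell, 2 rose and 9 did not pass. Nfatc1 read 10.7, 11.0 and 11.3 TPM in the 519-marked libraries, against 57.8, 62.4 and 33.6 TPM in the unmarked ones (log2 change -1.81 ± 0.20, adjusted p = 1.47e-07). All 3 marked libraries lay within 1 TPM of each other and below every unmarked one. Fos, the AP-1 partner needed for Nfatc1 induction, read 55.7, 50.5 and 42.9 TPM with the 519 mark and 266, 217 and 130.3 TPM without it (log2 change -1.68 ± 0.29, adjusted p = 7.8e-05). Jdp2, Ppargc1b, Mycl, Prdm1, Tfeb, Mitf, Fosl2, Tec and Src also fell, with log2 changes of -2.29, -2.06, -1.55, -1.14, -0.87, -0.83, -0.60, -0.55 and -0.47. Jun (0.67) and Tfe3 (0.48, lost with TPM as deposited) rose. The lineage factor Spi1 (PU.1) and the adaptor Traf6 changed by -0.34 and -0.30 and did not pass.

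Dcstamp and Ocstamp are multipass proteins required for cell fusion. Dcstamp read 2.04, 1.67 and 1.94 TPM in the 519-marked libraries, against 118, 94.2 and 40.2 TPM in the unmarked ones (log2 change -4.54 ± 0.30, adjusted p = 8.45e-11), and Ocstamp read 1.34, 1.28 and 1.07 TPM with the 519 mark and 33.1, 32.4 and 15.6 TPM without it (log2 change -3.39 ± 0.23, adjusted p = 1.38e-10). Tspan7, a tetraspanin that organises the actin ring, read 1.43, 1.56 and 1.75 TPM with the 519 mark and 46.4, 50.5 and 26.1 TPM without it (log2 change -3.77 ± 0.19, adjusted p = 2.91e-12). Each of these was lower in every marked library. Of the 15 members 5 fell and 3 rose, and those that rose were Adam8 (1.13), Cd47 (1.12) and Rbpj (0.87, lost with TPM as deposited). Tetraspanins Cd9 and Cd81 changed by 0.08 and 0.07 and did not pass.

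Among 16 negative regulators of osteoclast formation, 7 rose and 2 fell, with a median of 0.54. Socs1, a feedback inhibitor of cytokine receptor signalling, read 58.1, 70.2 and 66.0 TPM in the 519-marked libraries, against 3.30, 3.12 and 6.33 TPM in the unmarked ones (log2 change 3.96 ± 0.25, adjusted p = 4.93e-11). Socs3, its relative that acts on gp130 receptors, rose by 2.05, and the NF-kB inhibitors Tnfaip3 and Nfkbia rose by 1.49 and 0.97. Id2 rose by 0.86. Irf8 (0.52), a macrophage factor that opposes Nfatc1, passed only with scaled TPM. Gpnmb, which osteoclasts also express, and Lgr4, a RANKL receptor that restrains differentiation, fell by 1.63 and 0.45. Only 1 of these 2 was called when any one of the 3 marked libraries, unmarked replicate 2 or unmarked replicate 4 was left out.

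The acute phase and antimicrobial genes rose. Of 13 tested members 10 rose and none fell, with a median of 2.75. Saa3, the serum amyloid A made by macrophages, read 34072, 61135 and 55515 TPM in the 519-marked libraries, against 2072, 3804 and 6463 TPM in the unmarked ones (log2 change 4.003 ± 0.68, adjusted p = 6.46e-05). Lcn2, lipocalin 2, which sequesters bacterial siderophores, read 3772, 4445 and 4900.4 TPM in the 519-marked libraries, against 128, 216 and 272 TPM in the unmarked ones (log2 change 4.75 ± 0.56, adjusted p = 4.91e-07). Slpi, a leukocyte protease inhibitor, read 4319.9, 5380.0 and 3756 TPM in the 519-marked libraries, against 152, 208 and 437 TPM in the unmarked ones (log2 change 4.49 ± 0.56, adjusted p = 1.15e-06). None of these groups overlapped, and unmarked replicate 4 was the highest of its group for each. S100a8 read 1193, 1574 and 3293 TPM in the 519-marked libraries, against 92.5, 97.0 and 202 TPM in the unmarked ones (log2 change 4.19 ± 0.58, adjusted p = 5.08e-06). Its usual partner S100a9 was listed at 0, 0.248 and 0 TPM with the mark and at 0 in all 3 unmarked libraries. Hp, Cfb, Saa1, Thbs1, C3 and Orm1 rose by 2.87, 3.70, 2.75, 2.28, 1.66 and 1.02. Reads of the Saa, Orm and Stfa paralogs can be split between near-identical copies, so single members of those families are uncertain.

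Neutrophil markers were read beside these genes. Their summed level was 5019.9 to 5579.8 TPM in the 519-marked libraries, against 154 to 558 TPM in the unmarked ones. Stfa3, a cystatin of the stefin A cluster, made up most of it at 4669.8, 4332 and 5001 TPM with the 519 mark and 90.6, 149 and 436 TPM without it (log2 change 4.97 ± 0.71, adjusted p = 7.31e-06), followed by the collagenase Mmp8 at 639, 643 and 536 TPM with the 519 mark and 50.8, 40.6 and 108 TPM without it (log2 change 3.58 ± 0.36, adjusted p = 5.41e-08). Of 17 markers 7 were tested and 5 rose (Stfa3, Mmp8, Stfa1, Csf3r and Camp). The defining granule genes Mpo, Elane, Ctsg, Retnlg and Fcnb were listed at 0 in all 6 libraries, and Ngp, Prtn3, Ltf and Ly6g stayed below 1 TPM.

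Interleukin-1 ligands rose with part of their receptors. Il1b read 4674, 6015 and 4098 TPM in the 519-marked libraries, against 68.2, 123 and 343 TPM in the unmarked ones (log2 change 5.37 ± 0.51, adjusted p = 2.05e-08). Il1a read 1687, 1938 and 1426 TPM in the 519-marked libraries, against 28.2, 59.2 and 116 TPM in the unmarked ones (log2 change 5.11 ± 0.53, adjusted p = 7.97e-08). Neither gene's groups overlapped, and unmarked replicate 4 held the highest unmarked value of both. Il1rn, the antagonist, rose by 2.36, the epithelial-type ligands Il1f6 and Il1f9 by 2.68 and 2.50, and Il18 by 1.03. Among receptors, Il1r1 read 6.95, 7.40 and 11.6 TPM with the 519 mark and 1.43, 1.01 and 1.52 TPM without it (log2 change 2.26 ± 0.22, adjusted p = 2.06e-08), Il1rap rose by 0.82 with scaled TPM only, and the decoy receptor Il1r2 fell by 1.06. The inflammasome sensor Nlrp3 rose by 2.41, while Casp1 and Pycard changed by 0.04 and 0.21 and did not pass. Gsdmd and Il18bp fell by 0.84 and 0.79, giving 9 of 16 members higher and 3 lower. The count lower was 1 without unmarked replicate 2.

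In the IL-6 and colony-stimulating factor list 9 of 15 rose and none fell. Csf3, the granulocyte colony-stimulating factor, had the highest change of all named genes and read 532, 541 and 456 TPM in the 519-marked libraries, against 3.67, 14.3 and 23.4 TPM in the unmarked ones (log2 change 5.68 ± 0.45, adjusted p = 9.17e-10). Il6 read 551, 601 and 426 TPM in the 519-marked libraries, against 19.7, 27.2 and 43.0 TPM in the unmarked ones (log2 change 4.43 ± 0.32, adjusted p = 2.21e-10). Csf2 (GM-CSF) rose by 4.02, Osm by 2.06, Csf3r by 1.65, Il11 by 1.23 and Lif by 1.199. The 519-marked libraries were above the unmarked ones throughout for Csf3 and Il6, with unmarked replicate 4 the nearest. The receptor chains Il6ra and Il6st (gp130) changed by 0.34 and -0.12, neither of which passed.

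Of 16 other cytokines and growth factors, 13 rose and none fell, with a median of 1.33, and 9 rose with TPM as deposited. Il12a, the p35 chain of IL-12, read 72.3, 95.6 and 52.7 TPM with the 519 mark and 1.06, 0.803 and 3.25 TPM without it (log2 change 5.10 ± 0.31, adjusted p = 4.83e-11). The EGF receptor ligands Ereg (4.45) and Areg (3.89) rose together with Il19 (2.58), Il12b (2.20) and Tnf. The last read 191, 189 and 183 TPM with the 519 mark and 78.6, 64.8 and 104 TPM without it (log2 change 1.49 ± 0.26, adjusted p = 9.02e-05), the smallest of these 6 changes. Il10 changed by 0.38 and did not pass.

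Chemokines that attract neutrophils and monocytes rose. Cxcl1 read 819, 863 and 627 TPM in the 519-marked libraries, against 26.2, 31.1 and 103 TPM in the unmarked ones (log2 change 4.37 ± 0.42, adjusted p = 2.14e-08), and Cxcl3 read 4792, 4934 and 4554 TPM with the 519 mark and 153, 179.5 and 481 TPM without it (log2 change 4.61 ± 0.52, adjusted p = 2.71e-07). Cxcl2, Ccl3 and Ccl4 each rose by 3.58, and Ccl2, Ccl7 and Cxcl5 by 3.09, 2.77 and 2.68. Of 22 tested chemokines 14 rose and 1 fell. The one that fell was Ccl22, a ligand of Ccr4 made by dendritic cells and macrophages, at 0.082, 0.028 and 0.075 TPM with the 519 mark and 4.76, 12.2 and 3.92 TPM without it (log2 change -2.69 ± 0.43, adjusted p = 3.66e-05). Cxcl10, which interferon induces, read 12.7, 6.72 and 9.09 TPM with the 519 mark and 12.4, 18.2 and 12.6 TPM without it and overlapped (log2 change -0.31 ± 0.26, adjusted p = 0.41). Without unmarked replicate 1 a second chemokine was called lower.

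Receptors and signalling genes of the Toll-like and NF-kB pathway rose in 20 of 36 cases and fell in 1, with a median of 0.64. The lipopolysaccharide coreceptor Cd14 read 2303, 2355 and 2073 TPM with the 519 mark and 534, 421 and 683 TPM without it (log2 change 2.35 ± 0.28, adjusted p = 5.1e-07). Surface receptors Tlr6, Tlr1 and Tlr2 rose by 1.91, 1.40 and 1.28, whereas Tlr9, which senses DNA in endosomes, fell by 1.83. Of the feedback genes of this pathway, Irak3, Nfkbiz, Zc3h12a and Tnip1 rose by 1.85, 1.64, 1.504 and 1.07. Of the NF-kB subunits, Nfkb1 rose by 0.71, a call lost with TPM as deposited. Rel, Nfkb2, Rela and Relb changed by 0.39, 0.17, 0.07 and 0.03 and did not pass. Leaving out unmarked replicate 4 called 2 members lower, and with TPM as deposited 15 members rose and 3 fell.

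Of 20 macrophage activation genes 18 rose and none fell, with a median of 2.24. They included both arginine-using enzymes, Nos2 at 250.1, 401 and 282 TPM with the 519 mark and 36.5, 34.3 and 98.2 TPM without it (log2 change 2.87 ± 0.45, adjusted p = 2.52e-05) and Arg1 at 3302, 3428 and 3023 TPM with the 519 mark and 298, 316 and 655 TPM without it (log2 change 3.32 ± 0.32, adjusted p = 2.29e-08). Cd38, an enzyme that consumes NAD, read 131, 185 and 143 TPM with the 519 mark and 10.2, 12.4 and 15.8 TPM without it (log2 change 3.77 ± 0.35, adjusted p = 1.59e-08). Both prostaglandin genes Ptges (3.47) and Ptgs2 (2.59), the itaconate enzyme Acod1 (2.98) and the cationic amino acid transporter Slc7a2 (3.54) rose as well. The mannose receptor Mrc1 changed by 0.10 and Vcan by 0.87, and neither passed.

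**Figure D3:**
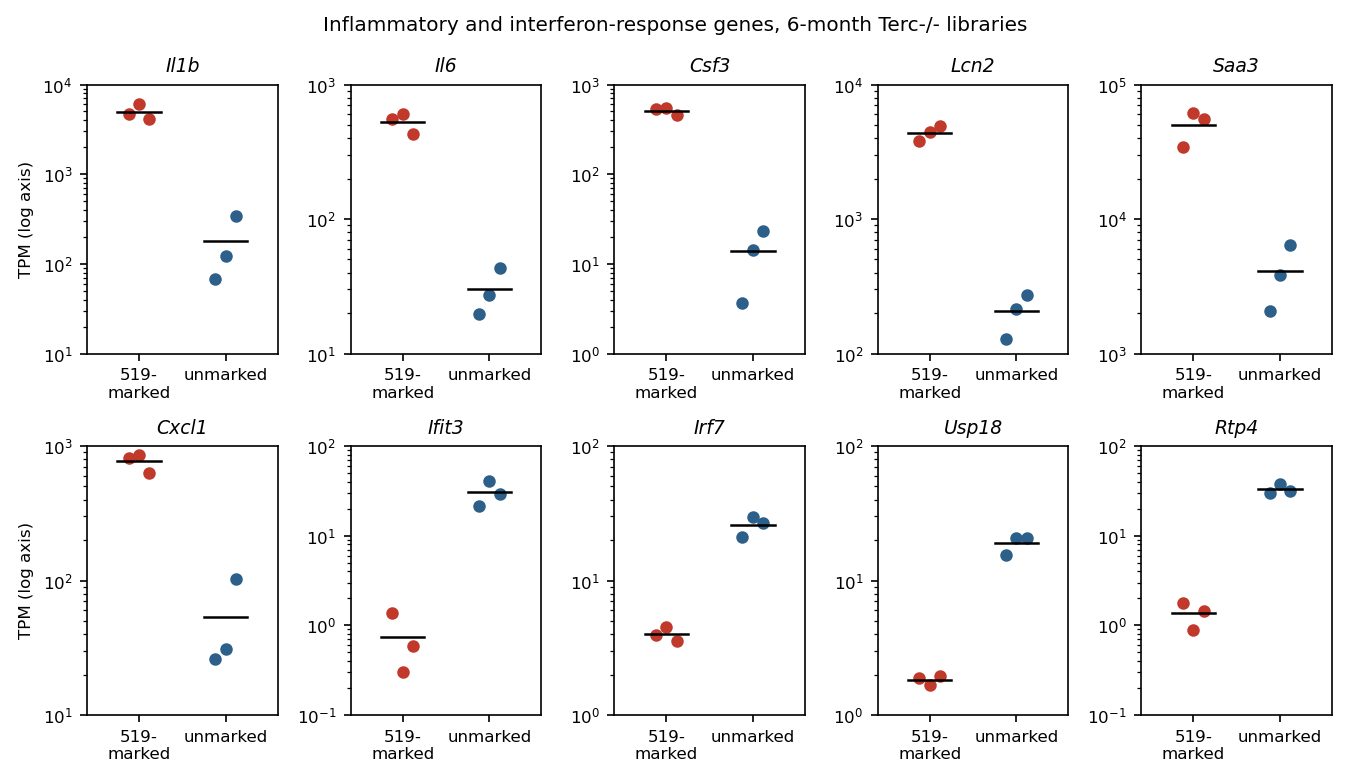
TPM (log axes, scaled per gene) of 6 inflammatory and 4 interferon-response genes in the 3 519-marked (red, left) and 3 unmarked (blue, right) 6-month Terc-/- libraries, with a black line at each group mean. Il1b to Cxcl1 are higher in every marked library, and Ifit3, Irf7, Usp18 and Rtp4 are lower in every marked library. The groups do not overlap for 57.7% of all tested genes, and all but Saa3, Irf7 and Usp18 were picked among those.

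Interferon-response genes moved the other way. Of 37 tested members 29 fell and none rose, with a median of -1.41. Ifit3, an interferon-induced antiviral protein, read 1.36, 0.300 and 0.594 TPM in the 519-marked libraries, against 21.5, 40.2 and 29.3 TPM in the unmarked ones (log2 change -4.01 ± 0.34, adjusted p = 3.26e-09). Rtp4 read 1.79, 0.894 and 1.46 TPM in the 519-marked libraries, against 29.7, 37.2 and 31.3 TPM in the unmarked ones (log2 change -3.64 ± 0.35, adjusted p = 2.1e-08). Oas3, which makes the activator of RNase L, read 1.11, 0.491 and 0.680 TPM with the 519 mark and 13.4, 18.4 and 12.4 TPM without it (log2 change -3.00 ± 0.36, adjusted p = 6.91e-07). All marked libraries lay below all unmarked ones for these 3 genes. Irf7, the factor that amplifies interferon production, read 3.96, 4.48 and 3.57 TPM with the 519 mark and 20.9, 29.8 and 26.8 TPM without it (log2 change -2.17 ± 0.31, adjusted p = 8.49e-06). Usp18, which removes Isg15 from proteins and dampens the receptor, read 1.87, 1.66 and 1.95 TPM with the 519 mark and 15.5, 20.8 and 20.7 TPM without it (log2 change -2.61 ± 0.25, adjusted p = 2.92e-08). Genes of the signalling complex were lower too, Stat2 by -0.55 and Irf9 by -0.62, and both passed. Irf1, Ifih1, Ddx58, Parp14 and Trim30a changed by -0.16, -0.18, -0.51, 0.07 and -0.08 and did not pass. Ifit3 and Ifit3b are close copies that counting can split, and both fell.

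Antigen presentation was divided. The MHC class II chains H2-Aa and H2-Eb1 read 0.376, 0.260 and 0.594 TPM with the 519 mark and 16.4, 49.8 and 17.0 TPM without it (log2 change -4.04 ± 0.44, adjusted p = 1.4e-07) and 1.06, 0.735 and 0.323 TPM with the 519 mark and 10.2, 31.4 and 10.1 TPM without it (log2 change -3.09 ± 0.42, adjusted p = 3.84e-06). The invariant chain Cd74 fell by 1.96, but H2-Ab1 overlapped at 41.3, 64.6 and 28.8 TPM with the 519 mark and 24.7, 53.8 and 24.0 TPM without it (log2 change 0.69 ± 0.40, adjusted p = 0.22). The costimulatory genes Cd80 (2.13), Cd40 (1.18) and Cd86 (0.62, lost with TPM as deposited) rose. In all, 5 of 11 members fell and 3 rose.

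The promoters of 6 of these genes are printed to show the sequence just upstream of 3 that rose and 3 that fell. Each is the 250 bases before the first start site that the RefSeq table (GRCm38.p6, the build of mm10) lists, 5′ to 3′ on the gene's strand. They lie at chr2:129371140-129371389 for Il1b, chr2:32387740-32387989 for Lcn2, chr7:46715677-46715926 for Saa3 and chr9:22135747-22135996 for Acp5, all on the minus strand, and at chr19:34583279-34583528 for Ifit3 and chr3:95498960-95499209 for Ctsk, both on the plus strand. Capitals mark matches, on either strand, to any of the patterns GGG, any 2 bases and TTTCC (NF-kB), TGANTCA (AP-1), TTGCNNAA (C/EBP), GAAA, any 2 bases and GAAA (interferon-stimulated response element, ISRE) and CACGTG (E-box), and no match overlaps another.
Il1b: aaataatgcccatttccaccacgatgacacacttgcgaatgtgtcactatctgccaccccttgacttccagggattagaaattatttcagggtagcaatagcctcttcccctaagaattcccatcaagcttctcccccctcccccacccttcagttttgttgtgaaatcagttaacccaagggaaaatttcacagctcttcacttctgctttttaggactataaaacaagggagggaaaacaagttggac
Lcn2: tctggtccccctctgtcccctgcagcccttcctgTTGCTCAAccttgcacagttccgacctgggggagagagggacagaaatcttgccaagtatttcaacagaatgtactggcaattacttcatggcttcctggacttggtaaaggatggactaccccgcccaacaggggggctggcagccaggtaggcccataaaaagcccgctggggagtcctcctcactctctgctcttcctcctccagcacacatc
Saa3: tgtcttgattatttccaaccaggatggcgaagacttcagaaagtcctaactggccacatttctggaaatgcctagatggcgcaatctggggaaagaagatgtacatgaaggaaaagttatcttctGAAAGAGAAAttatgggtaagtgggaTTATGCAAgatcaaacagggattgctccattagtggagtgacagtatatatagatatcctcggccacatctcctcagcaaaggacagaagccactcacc
Ifit3: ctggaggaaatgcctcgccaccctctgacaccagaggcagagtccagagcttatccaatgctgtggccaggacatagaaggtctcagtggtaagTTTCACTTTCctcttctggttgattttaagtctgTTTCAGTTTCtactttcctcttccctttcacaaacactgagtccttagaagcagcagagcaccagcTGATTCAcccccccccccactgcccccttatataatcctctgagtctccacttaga
Acp5: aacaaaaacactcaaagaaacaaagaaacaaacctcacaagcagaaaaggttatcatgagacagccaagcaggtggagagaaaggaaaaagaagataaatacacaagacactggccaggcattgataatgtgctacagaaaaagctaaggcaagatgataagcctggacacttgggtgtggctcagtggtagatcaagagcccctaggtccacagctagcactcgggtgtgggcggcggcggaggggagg
Ctsk: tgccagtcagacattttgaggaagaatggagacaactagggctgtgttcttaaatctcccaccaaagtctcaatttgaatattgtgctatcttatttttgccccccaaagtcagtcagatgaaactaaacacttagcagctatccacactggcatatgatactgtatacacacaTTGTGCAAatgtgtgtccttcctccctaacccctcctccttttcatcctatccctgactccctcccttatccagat

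In these windows Ifit3 held 2 ISRE matches, starting 156 and 122 bases before the start, and 1 AP-1 match. Lcn2 and Ctsk held 1 C/EBP match each, at 216 and 76 bases before the start, and Saa3 held 1 C/EBP match at 99 and 1 ISRE match at 125 bases. The windows of Il1b and Acp5 held no match, which says only that these letters are not in them. Over the lists, the ISRE pattern was in 11 of 26 interferon-response promoters (42.3%), against 3.04% of all 27025 promoters and 2.78% of the 9518 tested genes that had one. The C/EBP pattern was in 7 of 9 acute phase promoters (77.8%), against 9.55% of all promoters and 7.32% of those of tested genes. The NF-kB pattern was in 4 of 16 chemokine promoters (25.0%), against 1.40% of all promoters and 1.39% of tested genes. AP-1 matches were in 6 of 26 interferon-response promoters (23.1%) and 3 of 16 chemokine promoters (18.8%), against 6.87% of all promoters and 4.41% of tested genes. Over all called genes the shares stayed near the background, 1.57% of higher and 1.51% of lower genes for NF-kB, and 3.36% of higher and 3.65% of lower genes for ISRE. The AP-1 pattern was in 6.65% of higher and 5.71% of lower genes, between the 4.41% of tested genes and the 6.87% of all promoters. The E-box was in 8.86% and 7.69%, against 8.59% of tested genes and 6.05% of all promoters.

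Glycolysis genes rose and part of the respiratory chain genes fell. All 22 glycolysis and hypoxia genes passed as higher, with a median of 1.01. Ldha, lactate dehydrogenase A, read 2625, 3027 and 2833 TPM in the 519-marked libraries, against 1319, 1281 and 1658 TPM in the unmarked ones (log2 change 1.29 ± 0.16, adjusted p = 1.55e-06). The lactate exporter Slc16a3 read 612, 682 and 659.5 TPM with the 519 mark and 180.4, 179 and 258 TPM without it (log2 change 1.96 ± 0.15, adjusted p = 9.77e-10), and the glucose transporter Slc2a1 read 274, 329 and 291 TPM with the 519 mark and 129.6, 134 and 193 TPM without it (log2 change 1.27 ± 0.20, adjusted p = 3.59e-05). The marked libraries were higher throughout for these 3 genes. Pfkfb3, Egln3 and Ero1l rose by 1.87, 1.69 and 2.06, and Hif1a, the hypoxia factor, rose by 1.598. With TPM as deposited 18 of the 22 still rose. Of 42 nuclear oxidative phosphorylation genes 18 fell and none rose, with a median of -0.49. The count was 38 with TPM as deposited, 35 when only the 6 libraries were fitted and 11 without unmarked replicate 1. Ndufs8, a subunit of complex I, read 23.8, 20.2 and 25.3 TPM with the 519 mark and 60.8, 58.3 and 63.9 TPM without it (log2 change -1.09 ± 0.27, adjusted p = 0.00277), and Cyc1, cytochrome c1, fell by 1.04. Of 13 mitochondrially encoded genes 2 fell, mt-Co2 and mt-Co3, a share near the 13.8% lower over all tested genes. The number was 4 with TPM as deposited, 5 when only the 6 libraries were fitted and 1 when marked replicates 2 or 3 or unmarked replicate 1 were left out.

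Of 21 cholesterol synthesis genes 11 rose and none fell, with a median of 0.44, but with TPM as deposited 3 rose and 1 fell, and 7 rose and 1 fell without unmarked replicate 1. Lipid handling genes moved in both directions, 6 of 14 higher and 2 lower, or 3 higher and 4 lower with TPM as deposited: the cholesterol exporter Abca1 rose by 1.13 (lost with TPM as deposited) and its relative Abcg1 fell by 1.23. Of 10 iron handling genes 3 rose and 2 fell (3 fell with TPM as deposited), Slc11a1 rising by 1.598 and the transferrin receptor Tfrc falling to 36.7, 27.2 and 27.6 TPM in the 519-marked libraries, against 229, 237 and 105 TPM in the unmarked ones (log2 change -2.25 ± 0.25, adjusted p = 2.6e-07). Mt3, a metallothionein, read 1.26, 0.222 and 2.33 TPM with the 519 mark and 68.4, 60.6 and 15.8 TPM without it (log2 change -4.14 ± 0.55, adjusted p = 2.42e-06), while Mt2 rose by 1.31. Cyp2s1, a cytochrome P450, read 3.60, 1.70 and 2.49 TPM with the 519 mark and 102, 84.4 and 39.1 TPM without it (log2 change -4.11 ± 0.26, adjusted p = 5.69e-11).

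Lysosomal hydrolases and membrane proteins fell in 12 of 28 cases and rose in 3, led by Lipa, the acid lipase, at 140.0, 102 and 147 TPM with the 519 mark and 400.1, 374 and 284 TPM without it (log2 change -1.16 ± 0.20, adjusted p = 8.66e-05). The secreted matrix metalloproteinases Mmp8, Mmp13, Mmp3 and Mmp12 rose by 3.58, 3.44, 3.12 and 2.34, and the inhibitor Timp2 fell by 1.09. Of 36 proliferation genes 8 fell and 1 rose, with a median of -0.34. The number that fell was 15 with TPM as deposited, 3 without marked replicate 2 and 5 without unmarked replicate 1. Mki67 read 18.4, 13.2 and 17.0 TPM with the 519 mark and 23.4, 20.6 and 16.9 TPM without it and did not pass. Of 23 p53 targets and CDK inhibitors 9 fell and 2 rose (4 rose with median-of-ratios scaling, and 5 fell without marked replicate 3, unmarked replicate 2 or unmarked replicate 4). Cdkn2a, the p16 and p19 locus, read 46.6, 40.6 and 58.2 TPM with the 519 mark and 132, 114 and 118 TPM without it (log2 change -1.04 ± 0.26, adjusted p = 0.003), and Cdkn1a (p21) changed by 0.06 and did not pass. Of 15 telomerase and shelterin genes 2 fell, Terf1 (-0.52) and Terf2 (-0.42), the shelterin proteins that bind telomeric DNA, a share near the 13.8% over all tested genes. That count was 8 with TPM as deposited and 1 without marked replicate 2 or unmarked replicates 1 or 4.

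Macrophage identity genes did not move as a block. Of 16 tested macrophage markers 5 rose and 4 fell, with a median of -0.14 (4 rose and 6 fell with TPM as deposited). Their summed level was 45278 to 51936 TPM in the 519-marked libraries, against 47815 to 52605 TPM in the unmarked ones. Lyz2 alone made up most of it, at 43765, 42912 and 37217 TPM with the 519 mark and 38490, 33978 and 41751 TPM without it. Itgam (CD11b) and Adgre1 (F4/80) rose by 1.72 and 1.23, Cd68 and Cx3cr1 fell by 0.83 and 1.33, and Apoe read 668, 782 and 772 TPM in the 519-marked libraries, against 2645, 5441 and 3941 TPM in the unmarked ones (log2 change -2.09 ± 0.26, adjusted p = 1.38e-06). Of 5 tested monocyte markers 2 rose, Ly6c2 and F10, and none fell, while Plac8, Vcan and Fn1 did not pass. Ly6c2 read 9.36, 24.1 and 7.75 TPM with the 519 mark and 0.840, 1.34 and 2.75 TPM without it (log2 change 2.62 ± 0.44, adjusted p = 6.46e-05), while Ccr2 and Chil3 were at most 1.25 TPM in any library. Stromal and osteoblast markers summed to 257 to 431 TPM in the 519-marked libraries, against 245 to 779 TPM in the unmarked ones, and 2 of 9 fell. The 9 contractile genes, none called, summed to 1287 to 1343 TPM in the 519-marked libraries, against 798 to 3325 TPM in the unmarked ones, with the highest value in unmarked replicate 4. That library also held 119.8 TPM of Plac8, against 5.57, 6.43 and 6.05 TPM in the marked and 6.38 and 9.63 TPM in the other unmarked libraries. B cell markers summed to at most 1.197 TPM with the mark and 7.55 TPM without it, and T and NK cell markers to at most 1.56 TPM with the mark and 6.00 TPM without it. In the unmarked libraries Ighm and Trac made up most of these sums. Cd3e, Cd3g, Cd8a, Pax5 and Bglap were listed at 0 in all 6 libraries. The part of other cell types in the results above was not tested.

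**Figure D4:**
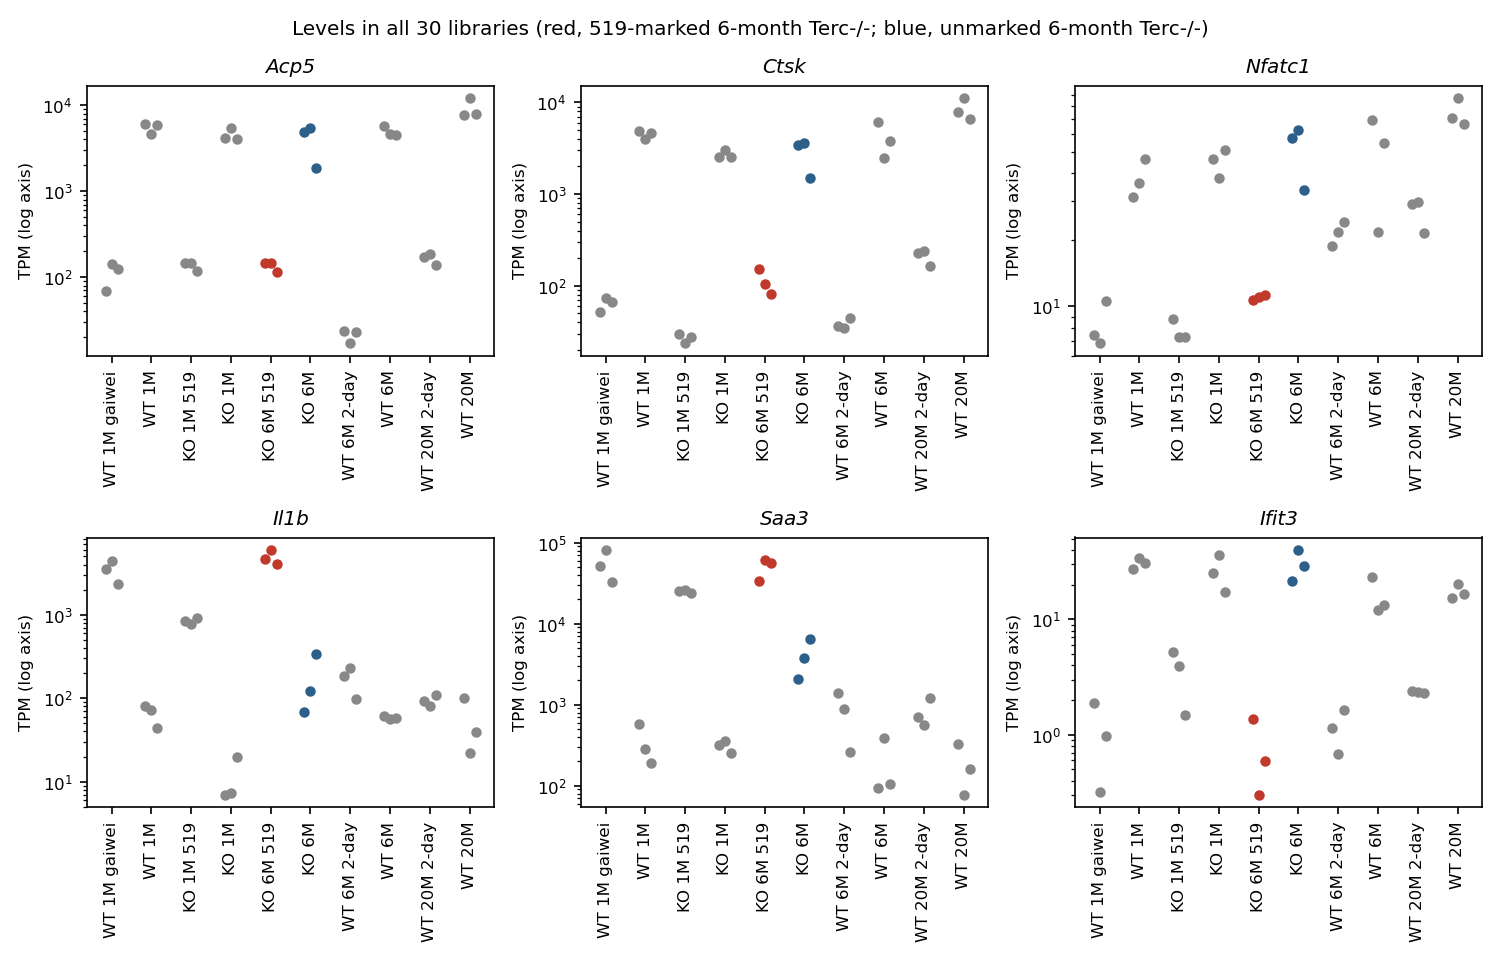
TPM (log axes) of 6 genes in all 30 libraries, by group, with 519-marked 6-month Terc-/- in red, unmarked 6-month Terc-/- in blue and the other groups in grey (KO, Terc-/-; WT, wild type; M, months). Acp5 in the red points, 113 to 145 TPM, lies near the marked 1-month groups and the 2-day 20-month wild type, and Saa3 in the red points is at 34072 to 61135 TPM.

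Levels in the other cultures are given side by side. Acp5 was at 113 to 145 TPM in 519-marked 6-month libraries, 16.9 to 23.5 TPM in 6-month wild type taken at 2 days and 137 to 186 TPM in 20-month wild type taken at 2 days, while unmarked large-cell groups lay at 1860.0 TPM or more. The 519-marked libraries overlapped the 20-month cultures taken at 2 days and lay below every large-cell culture without a mark. Nfatc1 was at 10.7 to 11.3 TPM in 519-marked 6-month libraries, against 18.8 to 23.9 TPM and 21.4 to 29.7 TPM in the 2-day cultures. Il1b was at 4098 to 6015 TPM in 519-marked 6-month libraries, against 98.8 to 229.5 TPM and 81.2 to 109 TPM in the 2-day wild type. Ifit3 read 0.300 to 1.36 TPM in 519-marked 6-month libraries, against 0.679 to 1.65 and 2.29 to 2.4 TPM in the 2-day cultures. Irf7 read 3.57 to 4.48 TPM in the former, against 1.39 to 2.63 and 3.52 to 6.67 TPM in the 2-day cultures. Both genes were thus also low in the 2-day cultures, beside 20.9 TPM or more of each in unmarked 6-month Terc-/- libraries. Genotype, age and culture time differ together in these sets, and they were not tested against each other.

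The 519 mark also occurs at 1 month, in a pair of groups that shares no library with the 6-month one. At 1 month 4237 genes (33.6%) passed, 2330 (18.5%) higher and 1907 (15.1%) lower. Of the genes called at both ages 2243 moved the same way and 59 the opposite way. The difference between the 2 changes passed for 589 genes (4.67%), 247 (1.96%) with a higher and 342 (2.71%) with a lower change at 6 months. Of the 24 genes with the largest changes at 6 months 5 differed, namely Ereg, Ctsk, H2-Aa, Ifit3 and Tspan7, and the other 19 did not pass. For Acp5 the changes were -4.48 at 6 months and -4.56 at 1 month (difference 0.09 ± 0.43, adjusted p = 0.93), for Csf3 5.68 at 6 months and 5.48 at 1 month (difference 0.20 ± 0.63, adjusted p = 0.88), and for Il1b 5.37 at 6 months and 6.72 at 1 month (difference -1.35 ± 0.72, adjusted p = 0.32). The number of differing genes was 277 with TPM as deposited (144 higher and 133 lower) and 1794 when only the 4 groups were fitted. It was 338, 287 and 336 without 1-month marked replicate 2, 1-month unmarked replicate 4 or 6-month marked replicate 2.

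Osteoclast genes differed between the ages in both directions. Ctsk changed by -4.28 at 6 months and -6.13 at 1 month (difference 1.84 ± 0.38, adjusted p = 0.00567), reading 30.02, 23.5 and 27.4 TPM in 519-marked and 2545, 2995 and 2518 TPM in unmarked libraries at 1 month. Mmp9 changed by 0.21 at 6 months and -1.57 at 1 month (difference 1.78 ± 0.43, adjusted p = 0.0168), reading 454, 476 and 521 TPM in 519-marked and 1890.3, 2314 and 1825 TPM in unmarked libraries at 1 month. Slc4a2 (difference 1.27 ± 0.23, adjusted p = 0.00168), Src (difference 0.80 ± 0.17, adjusted p = 0.00607) and Tspan7 (difference 1.22 ± 0.27, adjusted p = 0.01) had the same direction of difference. In all, 3 of 15 resorption genes differed, all with the higher change at 6 months. No proton pump gene and no member of the osteoclast receptor and adaptor list differed. In the fusion list Ocstamp, Tspan5 and Tspan7 had the higher change at 6 months and Cd81 the lower one (difference -0.73 ± 0.17, adjusted p = 0.0137), and in the transcription factor and signalling list Tec (difference -0.67 ± 0.16, adjusted p = 0.0176) and Blnk (difference -0.81 ± 0.19, adjusted p = 0.0154) had the lower one.

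Macrophage markers separated the ages. At 1 month 12 of the 16 rose with the mark and none fell, against 5 higher and 4 lower at 6 months, and 8 of the 16 differed, each with the lower change at 6 months. C1qa, a chain of the first complement component, changed by -0.61 at 6 months and 2.11 at 1 month (difference -2.72 ± 0.36, adjusted p = 4.65e-05), at 646, 528 and 752 TPM with the 519 mark and 1178, 1448 and 979 TPM without it at 6 months and 1675, 1912 and 1869.6 TPM in 519-marked and 627, 599 and 529.9 TPM in unmarked libraries at 1 month. C1qc (difference -2.24 ± 0.25, adjusted p = 7.05e-06), Aif1 (difference -2.61 ± 0.55, adjusted p = 0.00577) and Apoe (difference -1.86 ± 0.37, adjusted p = 0.00422) differed in the same way. Outside that list, Mrc1 changed by 0.10 at 6 months and 2.15 at 1 month (difference -2.06 ± 0.32, adjusted p = 0.000378), and the platelet-type chemokines Pf4 (difference -2.77 ± 0.57, adjusted p = 0.00482) and Ppbp (difference -2.71 ± 0.57, adjusted p = 0.00644) rose at both ages but less at 6 months. In the MHC class II list H2-Aa, H2-DMa and H2-DMb1 had the lower change at 6 months, and Cd80 the higher one (difference 1.89 ± 0.24, adjusted p = 3.59e-05). In the interferon list 5 genes, Ifit3, Ifi27l2a, Usp18, Bst2 and Ly6e, had the lower change at 6 months, as in Ly6e (difference -1.21 ± 0.27, adjusted p = 0.00921).

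The largest differences by age were in genes outside the osteoclast lists. Fst, follistatin, which binds activins, changed by 2.77 at 6 months and 0.20 at 1 month (difference 2.57 ± 0.44, adjusted p = 0.000912) and read 28.5, 25.1 and 29.3 TPM in the 519-marked libraries, against 2.50, 3.96 and 6.32 TPM in the unmarked ones at 6 months and 1.38, 1.26 and 1.59 TPM in 519-marked and 1.28, 1.46 and 2.06 TPM in unmarked libraries at 1 month. Tmc3 changed by 3.68 at 6 months and 1.69 at 1 month (difference 1.99 ± 0.35, adjusted p = 0.00128), Flrt3 by 2.13 at 6 months and 0.12 at 1 month (difference 2.01 ± 0.29, adjusted p = 0.000123) and H2-M2 by 1.98 at 6 months and -0.31 at 1 month (difference 2.29 ± 0.45, adjusted p = 0.00377). At the other end, Rpph1, the ribonuclease P RNA, which carries no poly(A) tail, read 25.8, 6.67 and 27.4 TPM in the 519-marked libraries, against 79.8, 62.2 and 57.0 TPM in the unmarked ones at 6 months and 118, 192 and 168 TPM in 519-marked and 31.7, 36.3 and 22.9 TPM in unmarked libraries at 1 month (difference -4.44 ± 0.76, adjusted p = 0.000912). Egr1, an immediate early transcription factor, read 6.11, 6.03 and 4.12 TPM with the 519 mark and 14.0, 18.4 and 23.2 TPM without it at 6 months and 9.55, 9.01 and 9.56 TPM in 519-marked and 0.828, 2.03 and 2.92 TPM in unmarked libraries at 1 month (difference -3.66 ± 0.29, adjusted p = 7.68e-08). Its order of groups was reversed between the ages. Fcrls, a macrophage and microglia receptor, changed by -2.70 at 6 months and 0.84 at 1 month (difference -3.54 ± 0.39, adjusted p = 7.05e-06), Slc13a3 by -0.87 at 6 months and 2.65 at 1 month (difference -3.52 ± 0.41, adjusted p = 1.13e-05) and Rgs1 by -1.22 at 6 months and 1.66 at 1 month (difference -2.88 ± 0.34, adjusted p = 1.35e-05). Vcan (difference 2.12 ± 0.58, adjusted p = 0.0348), Peg10 (difference 2.05 ± 0.53, adjusted p = 0.0254) and Marco (difference -2.89 ± 0.84, adjusted p = 0.048) passed narrowly and lost the call without several single libraries.

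In cholesterol synthesis 6 of 21 genes had the higher change at 6 months and none the lower. Sqle, squalene epoxidase, changed by 0.76 at 6 months and -0.21 at 1 month (difference 0.97 ± 0.20, adjusted p = 0.0052). Among inflammatory genes with the higher change at 6 months were Il1f6 (difference 2.11 ± 0.31, adjusted p = 0.000199), Il1r1 (difference 1.81 ± 0.30, adjusted p = 0.000809), Socs1 (difference 1.63 ± 0.35, adjusted p = 0.00682) and Thbs1 (difference 1.86 ± 0.50, adjusted p = 0.0317). Ccl12 (difference -2.10 ± 0.46, adjusted p = 0.00832) and Ccl5 (difference -1.93 ± 0.54, adjusted p = 0.0385) had the lower one.

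**Figure D5:**
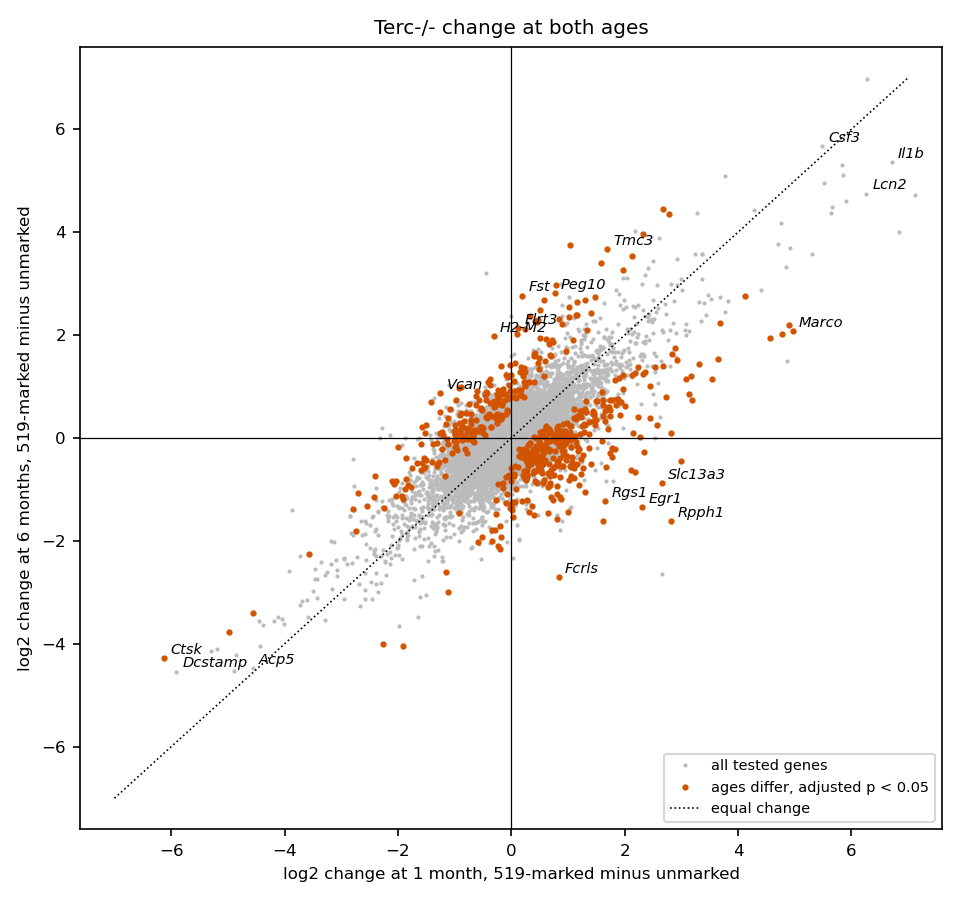
Log2 change of 519-marked minus unmarked Terc-/- libraries at 6 months (vertical) against 1 month (horizontal) for the tested genes (grey), with genes whose changes differed at an adjusted p of 0.05 in orange and a dotted line of equal change. Osteoclast genes such as Acp5 and Ctsk lie at the lower left and Csf3, Il1b and Lcn2 at the upper right, while Egr1, Rpph1 and Slc13a3 are higher with the mark at 1 month and lower at 6 months.

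The gaiwei mark at 1 month in wild type gave a further pair. Its change differed from that of the 519 mark at 6 months for 2140 genes (17.0%), 937 (7.43%) with the higher and 1203 (9.54%) with the lower change under 519, beside 5867 genes (46.5%) called under gaiwei itself. With TPM as deposited the split was 1076 higher and 591 lower. The number was 1273 and 1345 without unmarked 1-month wild-type replicates 3 or 4, and 3518 without replicate 1 of that group. Genotype, age and mark differ together here, and the unmarked 1-month wild-type libraries held 46.6 to 84.1 TPM of Xist, the X inactivation RNA of female cells, against at most 0.254 TPM in the other 27, so these differences cannot be told apart. Stfa3 changed by 4.97 under 519 and 9.54 under gaiwei (difference -4.57 ± 1.00, adjusted p = 0.00344), Lcn2 by 4.75 and 8.73 (difference -3.98 ± 0.79, adjusted p = 0.00177), Saa3 by 4.003 and 7.91 (difference -3.91 ± 0.96, adjusted p = 0.00727), and Wfdc17 by 2.54 and 6.11 (difference -3.57 ± 0.67, adjusted p = 0.00112). Saa3 was at 34072 to 61135 TPM under 519 and 32537 to 81892 TPM under gaiwei, which overlap, and at 2072 to 6463 TPM in unmarked 6-month Terc-/- and 194 to 578 TPM in unmarked 1-month wild type, which do not. Rpph1 (difference -6.81 ± 0.76, adjusted p = 7.53e-06) and Dcn (difference -3.85 ± 0.60, adjusted p = 0.000221) also had the lower change under 519. The genes Mfap5, Crabp2, Igfbp6 and Fbn1, with the higher change under 519, were high in unmarked 1-month wild type, as in Mfap5 at 37.2 to 145 TPM in that group (difference 4.92 ± 0.58, adjusted p = 1.26e-05). Igkv5-43 and Rnu11 were listed at 0 in all 6 Terc-/- libraries and all 3 gaiwei libraries and above 0 in 2 unmarked wild-type ones, so their called difference holds no value of the 519 comparison. Of the 7 osteoclast genes among the largest falls, Ctsk (difference 1.27 ± 0.38, adjusted p = 0.0252), Atp6v0d2 (difference 1.12 ± 0.36, adjusted p = 0.0337) and Tspan7 (difference 0.98 ± 0.27, adjusted p = 0.016) had the higher change under 519. For Acp5 (difference 0.63 ± 0.43, adjusted p = 0.33), Dcstamp (difference 0.69 ± 0.42, adjusted p = 0.26), Anxa8 (difference 0.35 ± 0.34, adjusted p = 0.51) and Oscar (difference 0.45 ± 0.40, adjusted p = 0.46) the difference did not pass.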

How the data were processed

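The authors deposited 5 tables of RNA-seq expression values, 1 per genotype and age, with 45706 gene identifiers in 30 libraries of 10 groups. The values are taken as TPM, which is not stated: the headers name only the libraries, and the unit was inferred from each column summing to 1000000. The submitters' processing notes name HTSeq and the build mm10, with no version; for the aligner, none is stated in the sources used here. TPM carry no counts, so no count model, interval or detection limit was computed. No column of values was left unused, and no 2 libraries held identical values. GENCODE M21 gave symbols for 45143 identifiers, and 563 had none.

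TPM were then scaled by a trimmed mean of log ratios (30% of ratios and 5% of levels trimmed), and the 12614 genes whose mean reached 1 TPM across all 30 libraries were tested. limma 3.58.1 in R 4.3.3 was fitted to log2(scaled TPM + 1) of all 30 libraries, with 1 mean per group and empirical Bayes with trend and robust settings. Adjusted p-values are Benjamini-Hochberg values from this fit over all genes tested, called at 0.05. The contrasts tested were marked minus unmarked for 519 at 6 months, 519 at 1 month and gaiwei in wild type, and the difference of the first change from each of the other 2. The fit was tested on simulated data. Summaries used Python 3.11.15 and pandas 2.3.3.

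The comparison and the 46 gene lists (776 entries, 774 matched by symbol and 2 by synonym) were chosen with earlier results of these data known. Genes named for the main contrast are the 12 highest and 12 lowest log2 changes among called genes that averaged 5 TPM or more and whose groups do not overlap, and for each difference the 6 highest and 6 lowest, leaving out predicted genes, pseudogenes and sex-linked genes. In each list up to 6 called members with the smallest p were eligible, and any member of the osteoclast, acute phase, interleukin-1, IL-6, chemokine and marker lists. Other list members named, those that did not pass included, and Plac8, Xist and the genes named among the differences beyond those 12 were chosen after their values were seen.

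Replicate numbers 1 and 2 occur in both groups. Deviations from the group means correlated at 0.084 and 0.042 between same-numbered libraries and at -0.151 to 0.106 between the others. So few values cannot tell whether same-numbered samples share an animal or a culture date, which the labels do not give. The main fit used no pairing. Promoters came from the RefSeq table for GRCm38.p6, searched by text on both strands. Alternatives were TPM as deposited, median-of-ratios scaling, a pseudocount of 0.1, no filter, a filter on the 6 libraries, 1 variance per group, only the groups compared, the replicate block and leaving out each replicate. Leaving out wild-type 6-month large-cell replicate 2, outside the comparison, was added after seeing the data, because that library correlated at 0.8891 and 0.9281 with the others of its group, which correlated at 0.9754 with each other. Some list members are not reported here.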

Additional observations from a re-analysis of the deposited data

Results flagged for a closer look

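The 12 genes with the largest called differences between the 519-minus-unmarked change at 6 months and that at 1 month were singled out, because the test of the difference itself passed in limma's fit over all 12614 genes. The gap of a single outlying library within a group was not tested, since that check needs 4 or more libraries a group. Of these, 6 had the higher change at 6 months. The difference in log2 change was 2.57 for Fst, 2.29 for H2-M2, 2.12 for Vcan, 2.05 for Peg10, 2.01 for Flrt3 and 1.99 for Tmc3. The other 6 had the lower change at 6 months. The difference was -4.44 for Rpph1, -3.66 for Egr1, -3.54 for Fcrls, -3.52 for Slc13a3, -2.89 for Marco and -2.88 for Rgs1. For Egr1 the 2 ages moved in opposite directions in every library, below the unmarked group at 6 months and above it at 1 month.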

How the results depend on the processing

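At 6 months 3559 genes passed, and the 24 genes with the largest changes kept direction and call in all 360 recomputed values. With TPM as deposited 884 were higher and 3418 lower, against 1816 and 1743 with scaling. The total was 3527 to 4743 under the other settings and 2754 to 3444 when 1 library was left out (1446 to 1811 higher, 1308 to 1633 lower). Of the 354 list genes called, 309 passed with TPM as deposited and 0 changed sign. The difference between ages passed for 589 genes, and for 277 with TPM as deposited, 2062 with 1 variance per group, 1794 with only the groups compared, 1521 without wild-type 6-month large-cell replicate 2 and 287 to 553 when 1 library was left out. Of the 252 values recomputed for all the flagged genes of that difference, 38 lost the call, all of them in Vcan, Peg10 and Marco. The difference from gaiwei passed for 2140 genes, for 3887 without that wild-type library and for 1273 to 3518 when 1 library was left out. Of the 250 values recomputed for all the genes picked in it, 5 lost the call, all of them in Igkv5-43 and Rnu11. The cause of these shifts was not tested. The labels do not say whether the replicate numbers pair the samples. With the number as a block, 3585 genes passed at 6 months, 547 for the difference between ages and 2075 for the difference from gaiwei. None of the genes picked as the highest or lowest changes or differences changed sign under the settings run. Some other named genes that did not pass changed sign with TPM as deposited, as in Mmp9 (-0.08, against 0.21 with scaling). The balance of higher and lower calls did turn with TPM as deposited, to 144 and 133, against 247 and 342, for the difference between ages and to 1076 and 591, against 937 and 1203, for the difference from gaiwei. With 3 libraries a group and unknown depth, changes of low genes are the least certain.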

Other observations

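Several gene lists belong to none of the groups above. In the amino acid stress list of Atf4 targets 3 of 14 genes rose and 7 fell in the 519-marked libraries, against 14.4% higher and 13.8% lower over all genes tested. The members that rose were Slc7a11 and Slc3a2, the 2 chains of the cystine transporter, and Ddit4. Slc7a11 read 203, 197 and 161 TPM with the 519 mark and 44.5, 37.1 and 60.1 TPM without it (log2 change 2.27 ± 0.31, adjusted p = 4.18e-06 in limma's fit). Every marked library was above every unmarked one. The synthesis enzymes Asns, Phgdh, Psat1 and Shmt2 fell, as in Shmt2 at 25.1, 23.6 and 25.4 TPM with the 519 mark and 46.4, 49.9 and 61.4 TPM without it (log2 change -0.77 ± 0.13, adjusted p = 9.07e-05). Atf4 itself changed by -0.001 and did not pass. Hmox1, the haem oxygenase that releases iron from haem, read 5486, 5789 and 5833 TPM with the 519 mark and 2989, 2539 and 3861 TPM without it (log2 change 1.17, adjusted p = 3.21e-05).

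Of 9 tested chemokine receptors 3 rose and 4 fell. Ccr1 rose by 0.86, with scaled TPM only, while Ccr3 read 2.39, 1.72 and 2.46 TPM with the 519 mark and 11.6, 8.51 and 5.64 TPM without it (log2 change -1.34). Of 15 MHC class I genes 1 rose and 4 fell, and B2m and H2-K1 changed by 0.28 and 0.13 and did not pass. With TPM as deposited 8 of these fell and none rose. Of 10 heat shock genes 3 rose and 2 fell, and of 23 matrix genes 2 rose and 2 fell. Unscaled, as deposited, 1 heat shock gene rose and 3 fell, 1 matrix gene rose and 4 fell, and 1 chemokine receptor rose and 5 fell. Of 13 C/EBP and immediate early factors 4 rose, with Ier3 at 862, 1003.5 and 841 TPM with the 519 mark and 142, 161 and 393 TPM without it, and 3 fell. Dendritic cell, endothelial and adipocyte markers had 1 member each that fell, Ccr7, Vwf and Fabp4, and mast cell and erythroid markers had none called.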
